A study of Homo sapiens with 6 samples.

Results

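BORIS and CTCF were mapped in the same cells, FT282 cells made to express BORIS, and their peak lists were compared with each other. All 68278 peaks of both lists were used, 23653 of BORIS and 44625 of CTCF, out of 111440 peaks in the 3 lists of the series. FT282 is an immortalised line of secretory epithelium from the human fallopian tube, and the cells used here were a clonal derivative. They stably carried either BORIS or an empty vector (EV). Occupancy was measured by ChIP-seq, in which fragments of crosslinked chromatin are pulled down with an antibody and sequenced. A monoclonal antibody against each protein was used, on chromatin sheared to fragments of about 200-500 bp. The remaining list, 43162 CTCF peaks in EV cells, serves below as a yardstick of how far 2 CTCF libraries differ. Each list came from 1 library, so there is no replicate error and no test, and every difference describes these libraries. A BORIS precipitation from EV cells and values of the sequenced input are not analysed here, so the background of the BORIS antibody was not measured.

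CTCF is a zinc finger protein that binds DNA at a long motif with a C-rich and G-rich core and stops the cohesin complex as it extrudes chromatin loops, which makes it the main insulator and loop anchor protein of vertebrates. BORIS, the product of CTCFL, is its paralog and is normally made in the male germ line. The zinc fingers of the pair are closely alike and recognise much the same motif, while their ends differ, and BORIS is made again in some tumours, ovarian cancers among them. Because both proteins were present here in the same nuclei, the lists show where each was recovered when the other was also available.

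CTCFL mRNA stood at 0.00532 FPKM (fragments counted per length of transcript and per size of the library) without the BORIS vector and at 53.3 FPKM with it, and CTCF mRNA at 21.1 and 20.8 FPKM. The secretory markers PAX8, KRT7, KRT8 and KRT18 stood at 72.5, 885, 254 and 230.2 FPKM in BORIS cells. The other 4 of 8 (EPCAM, OVGP1, WFDC2 and MUC1) were between 0.120 and 0.850 FPKM, and the label is therefore only partly borne out by its markers. Of 4 ciliated cell genes, the regulator FOXJ1 was listed at 0, and TPPP3, CCDC78 and CAPS stood at 0.0334, 0.897 and 1.11 FPKM. Of 3 leukocyte genes, CD3E was listed at 0, and PTPRC and CD68 stood at 0.0371 and 2.26 FPKM. Of 3 endothelial genes, PECAM1, VWF and CDH5 stood at 0.0134, 1.13 and 30.2 FPKM. Of 6 mesenchymal genes, ACTA2 stood at 292 and COL1A1 at 46.5 FPKM, and the other 4 between 0.0109 and 0.763 FPKM. The depth of the ChIP libraries is unknown, and a deeper library can hold more peaks. In bulk chromatin, a site bound in few cells and a site bound weakly in many cannot be told apart.

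A set of 4 promoters shows the sites compared here, 2 where both proteins had a peak and 1 for each protein alone. They were taken from genes whose span has the same length in the deposited table and in RefSeq, to within 10 bp, with the peak positions in the 250 bases before the start. The 2 with both proteins were further chosen for holding the core of the CTCF motif, which most such promoters lack, and are the highest of those by BORIS score. The other 2 are the highest of their class by the score of their own protein. Each is the 250 bases before the RefSeq gene start (GRCh38.p14), 5′ to 3′ on the strand of the gene, and capitals mark the core of the CTCF motif on either strand, which is CC, any 3 bases, AGG, any base and GGC. In NEURL3, which lacks it, capitals mark the shorter core AGGNGGC on either strand.
ZRANB2-AS2, chr1:71081074-71081323, plus strand: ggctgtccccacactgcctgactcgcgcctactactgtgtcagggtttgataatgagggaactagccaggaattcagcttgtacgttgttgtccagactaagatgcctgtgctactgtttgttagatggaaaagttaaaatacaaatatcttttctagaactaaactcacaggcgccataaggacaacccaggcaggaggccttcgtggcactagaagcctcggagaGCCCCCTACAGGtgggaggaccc
ZNF554, chr19:2819618-2819867, plus strand: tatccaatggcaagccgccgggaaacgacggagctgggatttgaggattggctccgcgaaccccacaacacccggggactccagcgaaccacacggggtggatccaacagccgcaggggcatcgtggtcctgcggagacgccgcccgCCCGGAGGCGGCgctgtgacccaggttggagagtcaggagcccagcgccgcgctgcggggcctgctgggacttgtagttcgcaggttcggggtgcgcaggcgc
CDK5RAP2, chr9:120580168-120580417, minus strand: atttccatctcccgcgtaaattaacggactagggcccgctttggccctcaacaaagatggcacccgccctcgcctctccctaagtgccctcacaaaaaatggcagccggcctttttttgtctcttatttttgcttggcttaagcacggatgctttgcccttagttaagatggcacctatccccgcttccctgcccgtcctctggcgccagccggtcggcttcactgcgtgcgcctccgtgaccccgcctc
NEURL3, chr2:96508110-96508359, minus strand: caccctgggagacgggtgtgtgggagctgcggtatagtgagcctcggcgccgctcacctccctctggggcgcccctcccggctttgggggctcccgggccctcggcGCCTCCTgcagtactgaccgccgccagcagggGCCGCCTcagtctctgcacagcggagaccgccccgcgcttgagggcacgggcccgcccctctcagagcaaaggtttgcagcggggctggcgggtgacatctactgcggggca

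In the ZRANB2-AS2 promoter, whose RefSeq symbol is ZRANB2-DT, the core lay on the other strand from 23 to 12 bases before the start. The authors' lists place the BORIS position 17 bp and the CTCF position 4 bp before the start of the same gene in their own build, hg19. The rule of choice thus fixed the presence of a core and a high BORIS rank in this promoter and the next. The BORIS peak here was 793 bp wide and stood at percentile 99.7 of its list by score. Its CTCF partner was 402 bp wide and stood at percentile 52.4. In the promoter of ZNF554, a zinc finger gene, the core lay from 103 to 92 bases before the start, with the BORIS position at 100 and the CTCF position at 88 bp before it. The peaks of the pair had like widths there, 550 and 543 bp, and percentiles of 99.1 for BORIS and 61.7 for CTCF. CDK5RAP2, a centrosome protein gene, had a BORIS position 65 bp before its start and no match to the core in the printed bases. NEURL3, a ubiquitin ligase gene of the neuralized family, had a CTCF position 105 bp before its start and no BORIS peak over the promoter.

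Most BORIS peaks came with a CTCF peak, whereas most CTCF peaks had no BORIS peak. Of the 23653 BORIS peaks, 15513 overlapped a CTCF peak by at least 1 bp, or 65.6% (95% Wilson interval 65.0 to 66.2%, which like all intervals here covers counting error only). Of the 44625 CTCF peaks, 15604 overlapped a BORIS peak, or 35.0% (34.5 to 35.4%). Against only the 23653 highest CTCF peaks, 46.3% of BORIS peaks had CTCF, so the majority rests on the length of the CTCF list. The shorter BORIS list likewise limits the share of CTCF peaks that can have BORIS. Shares by decile were not repeated at equal list size. The strongest BORIS peaks almost always had CTCF with them, and the strongest CTCF peaks often lacked BORIS. By deciles of the BORIS list by score, the share with CTCF went from 43.0% in the lowest to 96.3% in the highest. By deciles of the CTCF list, the share with BORIS went from 18.4% to 57.5%. In the highest decile, 88 of 2363 BORIS peaks (3.72%, 3.03 to 4.57%) had no CTCF peak, against 1900 of 4470 CTCF peaks (42.5%, 41.1 to 44.0%) with no BORIS peak. Scores have no stated unit and were compared only as ranks within a list.

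The highest BORIS score, 4050, fell at chr12:562081-562853 (hg19, as all peak coordinates here), 7076 bp from the span of B4GALNT3, a glycosyltransferase gene. Next came peaks at an end of U2AF2, which encodes the large subunit of the splicing factor U2AF (chr19:56164944-56165340), beside the transcription factor gene RFX7 (chr15:56538150-56538632) and at an end of CCDC144B (chr17:18528825-18529312). The last of the 5 lay beside the annexin gene ANXA9 (chr1:150951937-150952389), and each of the 5 overlapped 1 CTCF peak. The ANXA9 site was also among the 5 highest of the CTCF list, with a CTCF peak of 609 bp at chr1:150951816-150952424. The other 4 highest CTCF peaks each overlapped 1 BORIS peak and lay outside genes, 5119 bp or more from the nearest span. One of them, at chr12:53374551-53375150, had as its nearest gene EIF4B, a translation initiation factor gene 25211 bp away.

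BORIS peaks were a mixture of narrow and very wide, while CTCF peaks were more uniform. The median width was 362 bp for BORIS (quartiles 279 and 570 bp) and 392 bp for CTCF (283 and 507 bp), and the 99th percentile 1663 and 828 bp. Peaks wider than 700 bp numbered 4152 in the BORIS list (17.6%) and 1554 in the longer CTCF list (3.48%), and those wider than 1000 bp 1809 and 151. Width went up with score in both lists. It went from a median of 216 bp in the lowest decile to 550 bp in the highest for CTCF, and from 274 to 500 bp for BORIS. Where a BORIS and a CTCF peak overlapped one-to-one, BORIS was the wider in 4642 of 15102 pairs (30.7%), with medians of 332 and 461 bp.

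Wide BORIS peaks mostly sat at gene ends. Of the BORIS peaks wider than 700 bp, 68.7% had their centre no more than 1 kb from an end of a gene span and 49.0% overlapped CTCF. At widths over 250 and up to 300 bp these shares were 17.6% and 79.7%. CTCF peaks wider than 700 bp lay at a gene end in 17.6% and had BORIS with them in 67.0%, so in that list the widest peaks were the ones most often shared. The widest BORIS peak spanned 3753 bp at chr17:57919876-57923628 beside MIR21, a microRNA gene, at percentile 33.5 by score and with no CTCF peak. It was followed by 3335 bp beside NEGR1-IT1 (chr1:72747705-72751039), over 2 CTCF peaks, and by 3083 bp in WNT5A, a Wnt ligand gene (chr3:55518704-55521786), over 1. The centres of these 3 lay 3053, 1094 and 1426 bp from a gene end, so none counted as at an end. The widest CTCF peak spanned 2472 bp at chr14:106465315-106467786, with ADAM6 as its nearest gene.

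**Figure D1:**
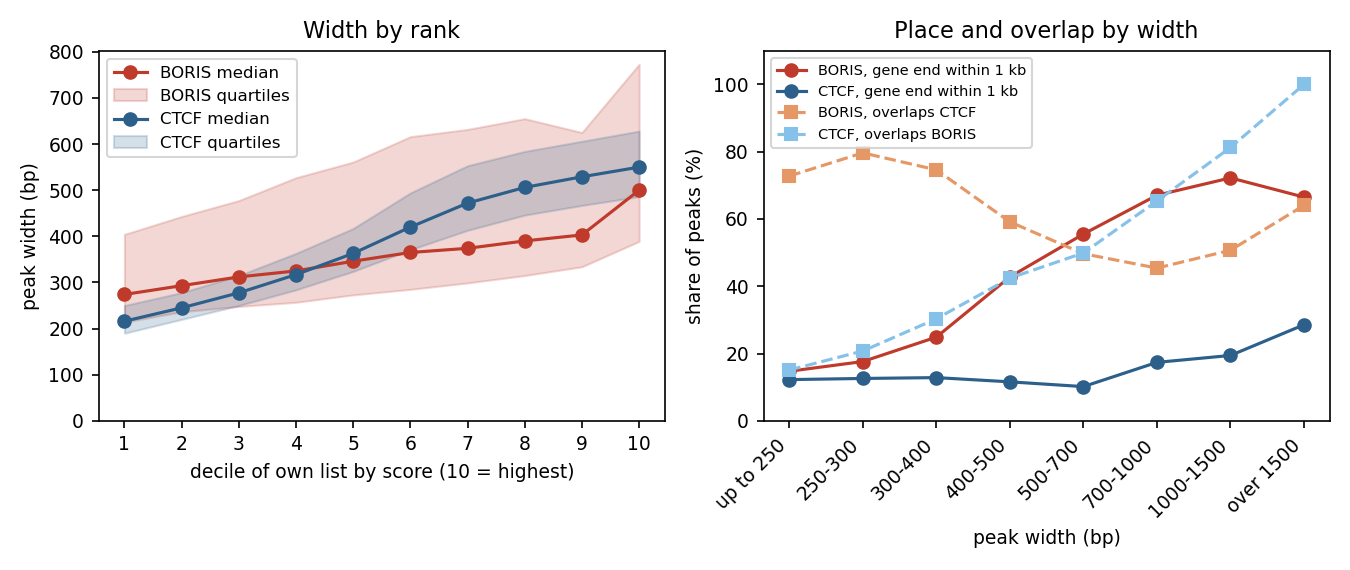
Left, peak width in bp (median, shaded quartiles) by decile of each list's score; right, share of peaks in % by width class that lay within 1 kb of a gene end (solid) or overlapped the other list (dashed). BORIS quartiles are wide in every decile, the gene-end share of BORIS peaks goes up with width to 72.2% at over 1000 and up to 1500 bp while that of CTCF peaks stays under 30%, and the widest CTCF class holds 7 peaks.

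The ranks of the proteins at shared sites were only loosely related. In the 15102 one-to-one pairs the within-list percentiles of score differed by no more than 20 points in 6620 pairs (43.8%, 43.0 to 44.6%), and Spearman's rho across pairs was 0.20, with a rho of 0.00 for width. The pairs share cells but not libraries, and rho is given as a description. At 14067 of these sites CTCF in EV cells also had a one-to-one peak. CTCF in EV and in BORIS cells came within 20 points in 98.2% of those pairs, with a rho of 0.96. Beside a BORIS peak of the highest decile, the CTCF peak had a median percentile of 78.6 (quartiles 60.0 and 91.8). With a BORIS peak of the lowest decile it was still 62.5 (37.9 and 79.4). Of 2180 pairs with BORIS in its highest decile, 618 had CTCF in its own highest decile (28.3%).

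**Figure D2:**
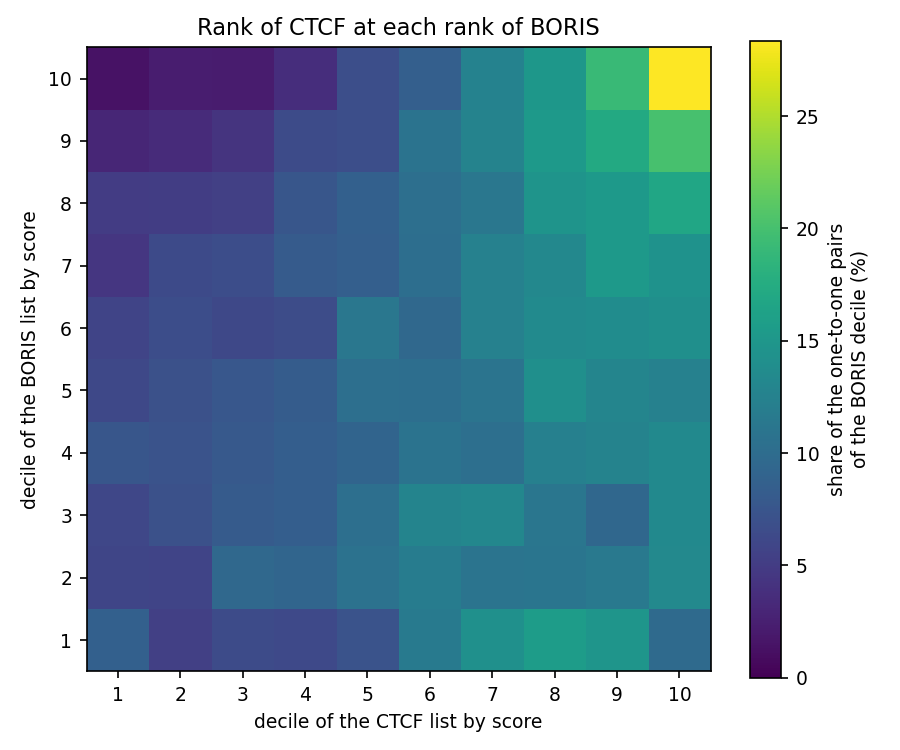
Share of the one-to-one pairs of each BORIS decile (rows, 10 = highest score) that falls in each CTCF decile (columns), in %. The highest BORIS decile places 28.3% of its pairs in the highest CTCF decile, and the lowest BORIS decile places 9.79% there and 8.68% in the lowest.

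Which protein ranked higher went with the distance to genes. At gene ends, the 3554 pairs had a median percentile of 73.5 for BORIS and 48.3 for CTCF. BORIS ranked higher in 74.0% of them and was the wider peak in 67.1%. Over 5 kb from any gene end, the 8755 pairs had medians of 55.1 for BORIS and 71.4 for CTCF. There BORIS ranked higher in 35.5% and was wider in 16.8%. Within each place the relation of ranks was a little tighter than over all pairs, with a rho of 0.36 at gene ends and 0.25 away from them.

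The 5 pairs with the largest excess of BORIS rank lay at or close to genes. At TMEM18, which encodes a nuclear membrane protein, the BORIS peak chr2:677226-677754 stood at percentile 96.5 and its CTCF partner at 0.119. At CXXC1, whose protein binds unmethylated CpG, the BORIS peak chr18:47813643-47814510 stood at 99.9 and CTCF at 5.26. The others lay at SMEK2, a phosphatase 4 subunit gene, at SHISA9 and 2856 bp from PRPF4B, a splicing kinase gene, with BORIS at 94.3, 96.9 and 98.7 and CTCF at 0.175, 3.75 and 5.79. None of the 5 with the largest excess of CTCF rank came within 5 kb of a gene end. One lay inside CCDC19 (BORIS chr1:159861432-159861605, percentile 1.15, CTCF 99.1), 8388 bp from its end. The others had as nearest gene the cell death kinase gene RIPK1, the ion channel gene ACCN1, the Wnt ligand gene WNT6 and the inhibitory SMAD gene SMAD6. At these 4, BORIS stood between 0.543 and 3.11 and CTCF between 97.8 and 99.5.

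The positions of BORIS and CTCF nearly coincided. Each peak carries a position inside it, and in one-to-one pairs the BORIS and CTCF positions lay a median of 15 bp apart (quartiles 7 and 29 bp). They were within 50 bp in 13557 of 15102 pairs (89.8%), and the median signed offset was -1 bp. For CTCF in EV against CTCF in BORIS cells, at the 14067 of these sites with a one-to-one CTCF peak in EV cells, the median was 10 bp. Its quartiles were 4 and 18 bp, and 97.4% were within 50 bp. The offset was smaller at stronger CTCF peaks, from 31 bp in the lowest CTCF decile to 13 bp in the highest, against 22 and 7 bp for the yardstick.

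A minority of pairs had clearly separate positions, and these came with wide BORIS peaks. The offset was over 100 bp in 742 pairs (4.91%, 4.58 to 5.27%), against 0.476% (0.375 to 0.604%) for the yardstick. The yardstick held fewer of the weakest CTCF peaks, with 272 against 751 pairs in the lowest CTCF decile. Within that decile the offset was over 100 bp in 19.6% of BORIS and CTCF pairs, against 2.57% for the yardstick. In the highest decile the shares were 2.06% and 0.319%. With BORIS peaks of up to 400 bp it was over 100 bp in 0.938% of 10127 pairs, and with BORIS peaks over 700 bp in 22.1% of 1827. At gene ends it was over 100 bp in 10.9% of pairs, against 2.50% over 5 kb away. A wide peak leaves more room for its position, and the part of width in this difference was not tested.

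**Figure D3:**
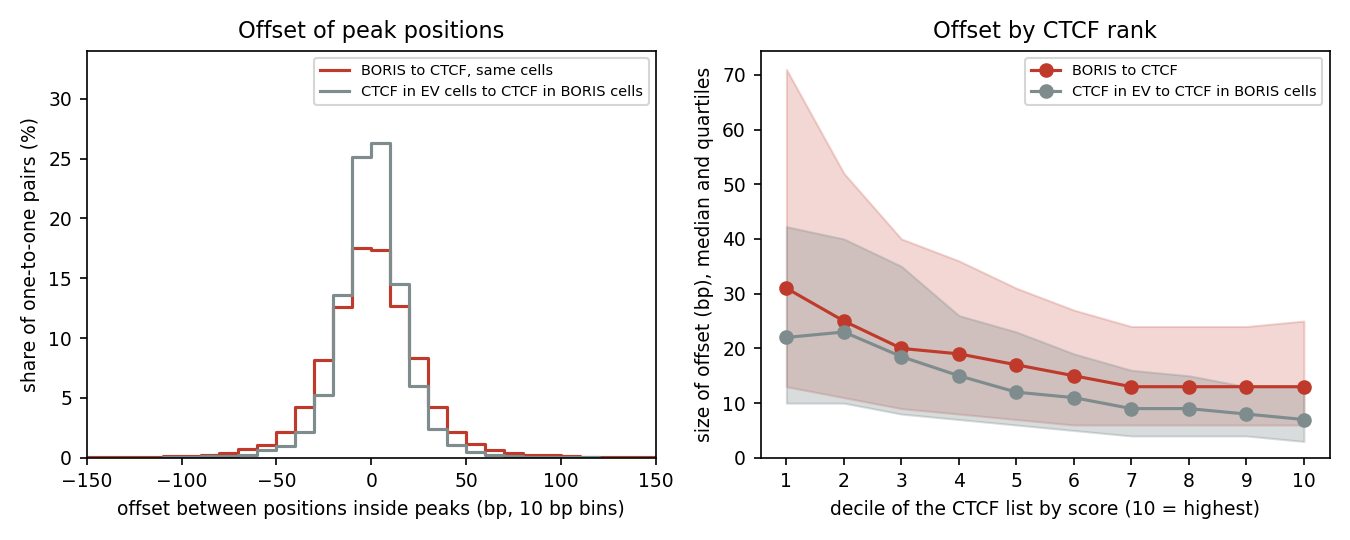
Left, share of one-to-one pairs in % by signed offset between the positions inside overlapping peaks (bp). BORIS to CTCF is in red, and CTCF in EV to CTCF in BORIS cells, at those of the sites with a one-to-one EV peak, in grey. Right, size of the offset in bp (median, shaded quartiles) by decile of the CTCF score. Both distributions centre on 0 and the red one is broader, with medians of 31 to 13 bp against 22 to 7 bp from the lowest to the highest decile.

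Few BORIS peaks covered more than 1 CTCF peak. Of 23653, 8140 covered 0, 15320 covered 1, 182 covered 2, 10 covered 3 and 1 covered 4. Against only the 23653 highest CTCF peaks, 22 covered 2 or more. In the other direction, 114 CTCF peaks covered 2 BORIS peaks and none covered more. The 193 BORIS peaks with 2 or more CTCF peaks had a median width of 1202 bp and stood at a median percentile of 83.4, and 117 of them (60.6%) lay at a gene end. Neighbouring CTCF positions within them were a median of 630 bp apart (quartiles 489 and 822 bp). The BORIS position was a median of 21 bp from the nearest of them and within 50 bp in 150 of 193, so it mostly sat on 1 of the CTCF sites rather than midway. That nearest CTCF peak was the highest-scoring one in 111 (57.5%). In 182 of the 193 there were only 2 CTCF peaks to choose from.

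The BORIS peak with 4 CTCF peaks lay inside the span given for PLEKHA8P1 (chr12:45609020-45610990, 1971 bp). Those CTCF peaks formed one of the longest runs of the CTCF list, spanning chr12:45609113-45610871. The BORIS peak at an end of ZFP64, a zinc finger gene (chr20:50807806-50809120), and the one in PTMA, the prothymosin alpha gene (chr2:232573411-232576212), each covered 3. Among CTCF peaks with 2 BORIS peaks, the highest-scoring lay in FAM83G (chr17:18934904-18936174), at an end of the amino acid transporter gene SLC36A1 (chr5:150826845-150828057) and beside the ubiquitin ligase gene MUL1 (chr1:20820285-20821060). At GALNT14, which encodes an enzyme that starts mucin-type O-glycans, a BORIS peak of 1153 bp at chr2:31360734-31361886 covered 2 CTCF peaks, at chr2:31360815-31361233 and chr2:31361340-31361861. A second BORIS peak, chr2:31359925-31360480, lay beside it without CTCF. CTCFL itself had 3 CTCF peaks in its span and none of BORIS. The nearest BORIS peak, chr20:56101205-56101877, lay 1386 bp beyond the span, without CTCF.

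BORIS peaks came in clusters more often than CTCF peaks. A second BORIS position lay within 1 kb of 3432 of 23653 BORIS peaks (14.5%, 14.1 to 14.96%). Among CTCF peaks 2038 of 44625 had such a neighbour of their own list (4.57%, 4.38 to 4.76%), and 4.60% in EV cells. With the CTCF list reduced to its 23653 highest scores the share was 1.36%. The median distance between neighbouring positions was 41.2 kb for BORIS and 30.8 kb for CTCF with the full lists. With the CTCF list reduced to 23653 peaks it was 57.0 kb, so the order of these medians turned with the length of the list. The closeness held at gene ends, with 24.8% of BORIS and 11.7% of CTCF peaks, and over 5 kb from them, with 6.75% and 3.14%. Of the 200 bp bins under 3 kb, that of 600 to 800 bp was the fullest in both lists, with 623 BORIS and 362 CTCF pairs, and the BORIS counts fell off faster beyond it. A peak caller that splits a broad region can yield such neighbours, and its part in these counts was not tested.

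Of the 1814 neighbouring BORIS pairs within 1 kb, both members overlapped CTCF in 337, 1 member in 775 and neither in 702. The longest BORIS runs held 4 peaks. One spanned chr1:100816545-100819215 at an end of CDC14A, a phosphatase gene with 3.69 FPKM in BORIS cells, and the other chr1:149857794-149860449 at the histone gene HIST2H2AB, with 147 FPKM. The longest CTCF run held 5 peaks, at chr21:28215763-28218671 by an end of ADAMTS1, a secreted metalloprotease gene. BORIS peaks without CTCF lay a median of 10.3 kb from the nearest CTCF position and within 1 kb of one in 960 of 8140 cases (11.8%). CTCF peaks without BORIS were a median of 39.1 kb from the nearest BORIS position.

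BORIS was concentrated at gene starts. Within 1 kb of an end of a gene span lay 35.9% (35.3 to 36.6%) of BORIS peaks and 12.02% (11.7 to 12.3%) of CTCF peaks. Inside genes but over 5 kb from an end were 22.6% and 32.6%, and outside genes at that distance 24.98% and 40.7%. For genes whose strand could be taken from RefSeq, 5229 BORIS positions (22.1%) lay within 1 kb of a start and 524 (2.22%) within 1 kb of a stop. CTCF had 2715 (6.08%) at starts and 804 (1.80%) at stops. BORIS peaks without CTCF were the most start-bound, with 3089 of 8140 at a start (37.9%, 36.9 to 39.0%), against 13.8% of those with CTCF. CTCF peaks without BORIS lay at a start in 552 of 29021 cases (1.90%) and at a stop in 432 (1.49%).

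Both proteins lay on either side of the start, with BORIS shifted into the gene relative to CTCF. Within 1 kb of starts, 62.1% of BORIS positions were inside the gene, with a median of 112 bp downstream. Their quartiles were -137 and 412 bp, where negative is upstream. Of CTCF positions 43.4% were inside, with a median of 51 bp upstream and quartiles of -265.5 and 308.5 bp. BORIS peaks without CTCF were further in, with 72.2% downstream and a median of 172 bp. Those with CTCF had 47.5% downstream and a median of 21.5 bp upstream. The fullest 250 bp bin was the first inside the gene for BORIS, with 1345 peaks, and the last before the start for CTCF, with 822.

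**Figure D4:**
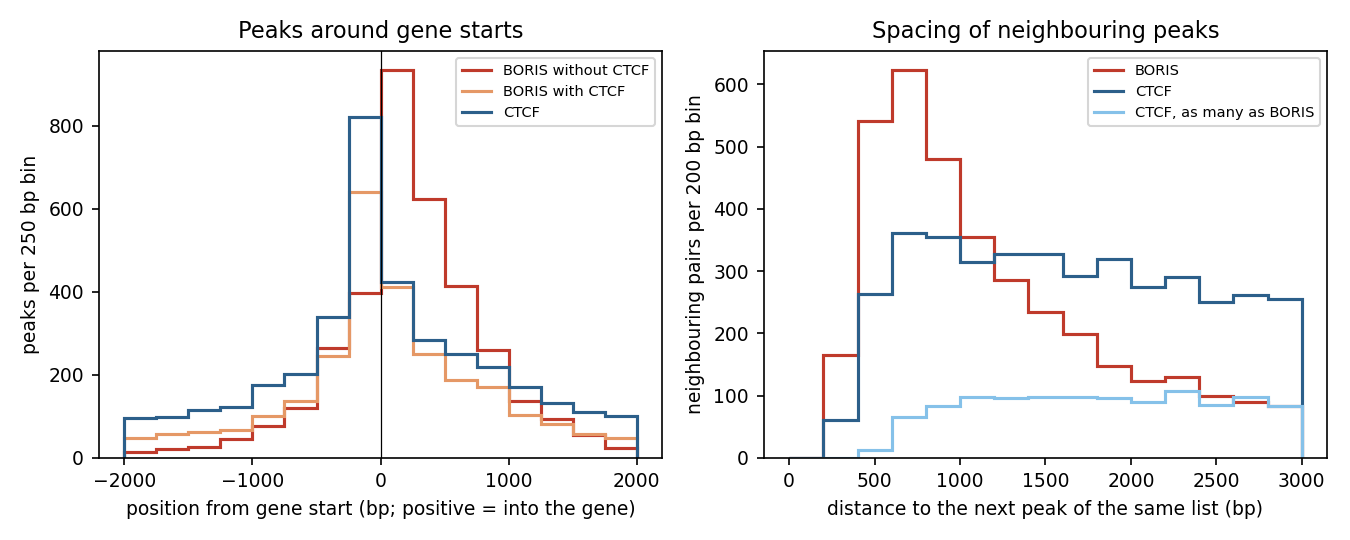
Left, peaks per 250 bp bin by position from the gene start (bp, positive into the gene) for BORIS without CTCF, BORIS with CTCF and all CTCF peaks; right, neighbouring pairs per 200 bp bin by distance to the next peak of the same list (bp), for BORIS, CTCF and the 23653 highest CTCF peaks. BORIS without CTCF is highest in the first bin inside the gene and CTCF in the last bin before it, and the BORIS spacing peaks at 600 to 800 bp with 623 pairs.

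Genes with BORIS at their start were mostly expressed, with or without CTCF. Of 11992 genes with a strand and a span of their own, 39.1% had a BORIS position and 21.7% a CTCF position within 1 kb of the start. The 2507 with BORIS alone had a median of 11.5 FPKM in BORIS cells, and 90.8% (89.6 to 91.9%) reached 1 FPKM. The 2179 with both stood at 10.8 FPKM and 85.3%. The 424 with CTCF alone stood at 3.26 FPKM and 61.1% (56.4 to 65.6%), and the 6882 with neither at 0.152 FPKM and 40.4%. Over all 11992 genes the median was 3.75 FPKM, and 4815 were under 1 FPKM. Genes with CTCF alone were thus near the level of the whole set. In EV cells the medians of these 4 classes were 11.6, 10.4, 3.29 and 0.149 FPKM, in the same order. Among genes under 1 FPKM the start shares were close, 11.4% for BORIS and 10.1% for CTCF. Among expressed genes BORIS went from 48.9% in the lowest quintile to 60.2% in the highest, with 61.3% in the quintile below it, and CTCF from 25.9% to 30.4%.

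The CTCF core was most frequent in promoters with both proteins. The window searched ran from 250 bases before to 50 after the RefSeq start, on both strands, and a match is only a match of letters. Peaks were placed by the gene start of the authors' spans in hg19, which need not be the RefSeq start. In some genes the bases searched may therefore not be those under the peaks. The core was in 243 of 1315 windows of genes with both a BORIS and a CTCF peak there (18.5%, 16.5 to 20.7%). It was in 133 of 2245 with BORIS alone (5.92%, 5.02 to 6.98%), in 8.81% of 261 with CTCF alone (5.94 to 12.9%) and in 4.03% of 8171 with neither. The share over all 11992 genes searched, those with both among them, was 6.07%. That of BORIS alone lay just under it and above that of neither. In the 2309 genes of equal span length the shares were 18.5%, 5.31%, 11.8% and 3.02% of 233, 339, 51 and 1686 windows. There BORIS alone (3.38 to 8.24%) stood just over the 5.11% of all 2309 and above neither (2.31 to 3.96%). Over all 35116 RefSeq promoters the share was 4.64%. The same letters in reversed order, from CGG to CC, were in 2.97%, 2.00%, 1.92% and 1.53% of the 4 classes, and GC content averaged 65.9%, 64.6%, 64.4% and 59.6%. In the 43 windows with both proteins, a core and equal span lengths, the median distance from the centre of the core was 13.5 bp for the BORIS position and 13.5 bp for the CTCF position. In 18 such windows with BORIS alone it was 151 bp. The BORIS position came within 50 bp of the core in 31 of the 43 and in 6 of the 18. The ZRANB2-AS2 and ZNF554 promoters printed above are of the first kind.

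The ratio of BORIS to CTCF peaks differed between chromosomes. It was 0.530 over all 23 chromosomes, lowest on X at 0.304 (0.274 to 0.337), from 477 BORIS and 1569 CTCF peaks, and highest on chromosome 19 at 0.682 (0.632 to 0.736). Chromosomes 13 and 4 followed X with 0.433 and 0.463, and chromosome 17 stood second at 0.634. CTCF peaks in BORIS cells over those in EV cells ranged only from 1.01 to 1.06. Gene content went with the ratio: rho with gene spans per CTCF peak was 0.72 over 23 chromosomes, a description of points that share the CTCF count. X was off that relation, with 0.509 spans per CTCF peak against 0.548 on chromosome 17. Away from gene ends the ratio was lower everywhere and kept its extremes, with 0.195 on X, 0.467 on chromosome 19 and 0.344 over all. Within 1 kb of gene ends it was 1.59 over all, 1.16 on X and 2.25 on chromosome 18. On X, 71.5% of the BORIS peaks overlapped CTCF, the highest share of any chromosome (61.1% was the lowest).

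**Figure D5:**
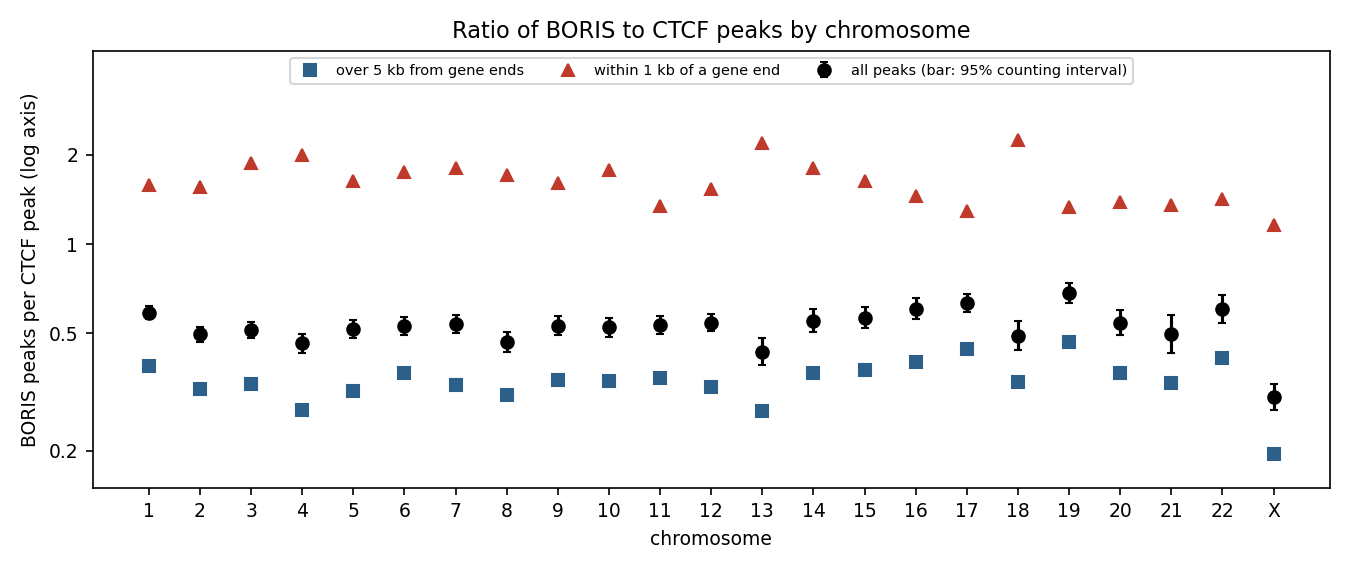
BORIS peaks per CTCF peak on a log axis for each chromosome, over all peaks (black, bars are 95% counting intervals), over peaks more than 5 kb from gene ends (blue) and over peaks within 1 kb of them (red). X is lowest over all peaks, at 0.304, and every chromosome has more BORIS than CTCF peaks at gene ends and fewer elsewhere.

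Families of genes differed in which protein stood at their ends. Over 22891 genes, BORIS was centred no more than 1 kb from an end of 9230 (40.3%) and CTCF of 6231 (27.2%). Counting the whole span and 1 kb to each side, 55.6% had BORIS and 58.4% had CTCF. Of 71 ribosomal protein genes, 48 had BORIS and 30 had CTCF. The span given for RPL5, of the large subunit, is shared with other genes. Between 1 kb before and 1 kb after it lay 5 BORIS and 3 CTCF peaks. Of 16 genes of CTCF, cohesin and its regulators, 11 had BORIS and 8 CTCF. NIPBL, the cohesin loader, had 3 peaks of each, PDS5B had 3 and 4, and STAG1, a cohesin subunit, had 2 of BORIS and 6 of CTCF. These shares exceed those over all genes, and 68 of the 71 and all 16 reached 1 FPKM in BORIS cells.

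The clustered protocadherins, cell-surface adhesion proteins whose promoters are chosen through CTCF, had CTCF at more gene ends than BORIS. A CTCF peak lay at an end of 52 of 53 and a BORIS peak at an end of 27, though these genes share 18 distinct spans and are not separate counts. PCDHA1 and PCDHA10 share a span that held 19 CTCF and 4 BORIS peaks. Of 39 HOX genes (33 distinct spans), which set position along the body axis, 15 had BORIS and 13 CTCF, 6 of them both. These shares, 38.5% and 33.3%, were close to the 40.3% and 27.2% over all genes. HOXA3 held 7 BORIS peaks and no CTCF peak, at 10.0 FPKM, and was the only member named by the rule with peaks of BORIS and none of CTCF. HOXA5, whose span is shared with HOXA6, held 5 and 3. Among 20 imprinted genes 5 had BORIS (25%) and 8 CTCF (40%). The span given for DIRAS3, an imprinted gene that it shares with others, held 10 and 14. The span given for GNAS, also shared with other genes, held 4 and 5, none of them at an end.

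Germ line genes had few peaks of either protein at their ends. Of 31 cancer-testis antigen genes 2 had BORIS at an end and the same 2, CT45A1 and PRAME, had CTCF, and both genes were listed at 0 FPKM in both libraries. Of 35 meiosis and germ cell genes, 8 had BORIS and 3 CTCF, and 1 of the 35 reached 1 FPKM in BORIS cells. STAG3, a meiotic cohesin subunit, stood at 0.155 FPKM, and the span it shares with other genes held 4 of each. These shares are below those over all genes for both proteins. Only 2 of the 31 and 1 of the 35 reached 1 FPKM in BORIS cells. CTCFL itself, at 53.3 FPKM there and 0.00532 FPKM in EV cells, was among the 2. Genes under 1 FPKM had fewer peaks at starts in general. Of such genes 11.4% had BORIS and 10.1% CTCF at the start, against 48.9% and 25.9% in the lowest quintile of expressed genes. These are shares at starts alone, in genes with a strand and a span of their own. The germ line shares count either end, so the 2 measures cannot be set side by side. The part of low expression in the shares of germ line genes was not tested. Of 20 GALNT genes, 9 had BORIS (45%) and 6 CTCF (30%), close to the 40.3% and 27.2% over all genes. The span given for GALNT10, shared with other genes, held 7 BORIS and 4 CTCF peaks, at 45.8 FPKM. GALNTL6 held 1 and 7 and was listed at 0. None of 16 beta globin and olfactory receptor genes had either protein at an end.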

How the data were processed

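Peak lists of 3 ChIP-seq libraries and an expression table of 2 RNA-seq libraries were used, with 1 library per group. The submitters' processing notes name hg19, Cufflinks 2.0.0, TopHat2 and Bowtie, with no role given. How peaks were called, at which threshold and against which control is not given in the sources used here. The authors' deposited peak lists give a start, an end, a score of no stated unit and a position inside each peak. The authors' deposited expression table gives FPKM values and gene spans. A spreadsheet had turned 28 gene names into dates.

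From these files, peaks were paired by an overlap of at least 1 bp. Percentiles were ranks of the score within a list. Gene ends were both ends of a span, and a peak was counted there when its centre was no more than 1 kb away. At starts its position was used in place of the centre. Strand and promoter sequences came from RefSeq (GRCh38.p14) by symbol, for 11992 genes, and no coordinates were converted. Shares carry 95% Wilson intervals. With 1 library per group no test was made, and the depth of each library is unknown. The functions for overlap, offset, nearest start and motif matches were checked on simulated data. Computation used Python 3.11.15, pandas 2.3.3, numpy 2.4.6, scipy 1.17.1 and matplotlib 3.10.9.

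The named regions were the 5 highest and 3 widest peaks of each list, the 3 with most peaks of the other list, the 5 most discordant pairs in each direction, the 2 longest runs, and peaks within 10 kb of CTCFL and GALNT14. In each gene list, the members with most peaks of either protein were named. Of 311 list entries 301 were found. The comparison, its rules and the gene lists were chosen with earlier results of these data known, and the promoter search and the use of strand were added after seeing the data.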

Additional observations from a re-analysis of the deposited data

How the results depend on the processing

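No value has a replicate error, and the lists limit what can be said, since caller, threshold and depth are unknown. Of 44 alternatives, 8 stayed within counting error (or within 1.5 times, for counts) and 36 moved. None turned the direction of the BORIS to CTCF difference in median width, in the share with a near neighbour or in the share at gene ends, but 2 took the share of BORIS peaks with CTCF below 50%. The share of BORIS peaks with CTCF was 46.3% at 50% reciprocal overlap, 62.8% with windows of 100 bp to each side of the positions, 57.9% for the upper 50% of each list and 46.3% with as many CTCF as BORIS peaks. BORIS peaks with 2 or more CTCF peaks then numbered 0, 0, 21 and 22, and the first of these follows from the rule itself. Rank agreement was 51.5%, 44.0%, 40.5% and 40.5%, and the median offset 15, 15, 13 and 14 bp. The ratio of median widths, BORIS over CTCF, was 0.923, and 0.822 for the upper 50%, 0.736 at equal size and 0.720 in one-to-one pairs. The share with a near neighbour was 4.88% for BORIS and 1.29% for CTCF in the upper 50%, 1.36% for CTCF at equal size, 21.0% and 7.50% between edges, and 32.5% and 25.7% within 5 kb. The median distance between neighbours reversed in order at equal size, from 41.2 kb for BORIS and 30.8 kb for CTCF to 57.0 kb for CTCF. The share at gene ends was 25.5% and 7.95% within 500 bp, 52.5% and 26.8% within 5 kb, 37.4% and 10.3% in the upper 50%, 10.4% for CTCF at equal size, and 22.1% and 6.08% at starts alone. Over 5 kb from gene ends the peak ratio was 0.195 on X and 0.467 on chromosome 19. Of genes with BORIS at an end, 76.8% reached 1 FPKM, and 70.8% with ends taken to 5 kb. The shorter core AGGNGGC was in 55.4% of promoters with both proteins. Except where a larger or smaller distance or list moves a share by construction, the cause was not tested. The planned search for the core in peaks was not run, since no genome of the files' build was used here. No paired analysis was possible because each group held 1 library and no test was made.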

Other observations

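Where the position of a CTCF peak lay in the 250 bp before a gene start, the BORIS position in the same pair was over 100 bp further downstream in 59 of 650 pairs and over 100 bp further upstream in 12. Where the CTCF position lay 250 to 1000 bp inside the gene, the counts were 21 downstream and 56 upstream of 538. The median offset along the gene was 0 bp and -2 bp in these groups.

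The short core AGGNGGC was in 55.4% of the 1315 promoter windows with both proteins, 45.3% of those with BORIS alone, 47.9% with CTCF alone and 38.7% with neither. Its reversed letters, CGGNGGA, were in 32.7%, 33.8%, 29.5% and 22.0%. A window with both proteins held 2 or more full cores in 19 of 1315 cases (1.44%) and one with BORIS alone in 5 of 2245 (0.223%).

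Of the 10 pairs named for their discordant ranks, the CTCF peaks at TMEM18 and SMEK2 had no counterpart in EV cells, and the other 8 did.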
